A study of Mus musculus with 4 samples.

Results

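In mouse P19 embryonal carcinoma cells, 456 genomic regions were called by the S9.6 antibody in the cells of exactly 1 Ube2t hairpin and lay more than 1000 bp from any annotated gene end. They came from 2773 regions, made by merging the touching or overlapping intervals of 3 S9.6 peak lists. Hairpin shUbe2t #1 held 217 of the 456 and hairpin shUbe2t #2 held 239. Members were chosen by their calls: a call in 1 hairpin list, none in the other hairpin list, none in the shCtrl list and no overlap with a call made without primary antibody. Over all merged regions, 1279 of 2773, or 46.1%, were called in exactly 1 hairpin library and not in shCtrl. Because that share comes from the rule itself, it is a description of the selection.

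R-loops are three-stranded structures in which RNA pairs with a DNA template strand and leaves the other DNA strand single. S9.6 is an antibody that binds RNA:DNA hybrids, and CUT&Tag places a transposase at the bound antibody so that nearby DNA is cut and sequenced. R-loops are known to form at promoters rich in CpG, the dinucleotide C followed by G, as well as over transcribed bodies and gene ends. UBE2T is the ubiquitin-conjugating enzyme that works with the FANCL ligase to modify FANCD2 and FANCI, and the Fanconi anaemia pathway is known to act where replication meets R-loops. Many genes also have start sites inside their annotated span, from which shorter transcripts begin.

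All 4 libraries were from the P19 cell line, a mouse line of embryonal carcinoma cells grown in serum medium. The shCtrl cells, of wild-type genotype, received a control adenovirus, and the knockdown cells received an adenovirus carrying shUbe2t #1 or shUbe2t #2. S9.6 was used in 1 library of each of these 3 conditions, and 1 further library of shCtrl cells had no primary antibody. With 1 library per condition there was no test between conditions, no spread between cultures, and no check of how far Ube2t fell, since the lists give positions in genomic DNA and no transcript level. None of 10 marker genes of embryonal carcinoma cells, among them Pou5f1 and Sox2, had an S9.6 region in or within 1000 bp of it, so the lists neither bear out nor question the cell line's label.

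The lists held 1263 distinct intervals for shCtrl, 1519 for shUbe2t #1, 1640 for shUbe2t #2 and 516 without antibody. Depth, read from the lowest background of each list, relative to shCtrl was 92.2% for shUbe2t #1 and 93.6% for shUbe2t #2, and 58.7% for the no-antibody library. The number of fragments per library is unknown. The part of depth or of a single library in any difference below was not tested, and library and condition cannot be told apart.

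Sequences from 5 members show the kind of DNA at which the strongest members with an internal start lay. The first 4 belong to the members at an internal start with the highest deposited fold, which is the ratio of the summit to its local background, in either hairpin list. The fifth, from Bmpr1b, is shown as a contrast poor in CpG. Each is the 250 bases before a start site inside the gene, from RefSeq on GRCm38.p6, the build also called mm10, written 5′ to 3′ on the strand of the gene, with every CpG in capitals.
Vapa, minus strand, chr17:65613556-65613805: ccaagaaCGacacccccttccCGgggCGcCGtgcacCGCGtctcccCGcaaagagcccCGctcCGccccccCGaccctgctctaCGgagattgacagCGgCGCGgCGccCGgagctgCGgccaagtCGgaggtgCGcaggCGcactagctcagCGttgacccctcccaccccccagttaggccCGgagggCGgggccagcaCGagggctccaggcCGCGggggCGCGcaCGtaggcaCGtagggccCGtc
Dnmt1, minus strand, chr9:20952980-20953229: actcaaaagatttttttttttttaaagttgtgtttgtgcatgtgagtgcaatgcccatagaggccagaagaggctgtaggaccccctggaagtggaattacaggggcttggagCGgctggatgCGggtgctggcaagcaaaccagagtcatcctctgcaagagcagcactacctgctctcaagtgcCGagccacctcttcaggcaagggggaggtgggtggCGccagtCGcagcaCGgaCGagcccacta
Dcaf11, plus strand, chr14:55560673-55560922: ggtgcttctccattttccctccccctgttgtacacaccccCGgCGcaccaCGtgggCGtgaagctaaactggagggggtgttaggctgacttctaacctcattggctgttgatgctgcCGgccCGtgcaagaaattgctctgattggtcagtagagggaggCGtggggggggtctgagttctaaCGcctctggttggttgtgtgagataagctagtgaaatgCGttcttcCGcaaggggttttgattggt
Palld, minus strand, chr8:61591140-61591389: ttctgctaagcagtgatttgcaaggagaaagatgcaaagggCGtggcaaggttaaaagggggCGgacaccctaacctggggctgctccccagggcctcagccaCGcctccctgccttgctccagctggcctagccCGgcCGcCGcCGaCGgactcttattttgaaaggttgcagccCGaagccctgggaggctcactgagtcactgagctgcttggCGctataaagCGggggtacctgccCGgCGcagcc
Bmpr1b, minus strand, chr3:141931589-141931838: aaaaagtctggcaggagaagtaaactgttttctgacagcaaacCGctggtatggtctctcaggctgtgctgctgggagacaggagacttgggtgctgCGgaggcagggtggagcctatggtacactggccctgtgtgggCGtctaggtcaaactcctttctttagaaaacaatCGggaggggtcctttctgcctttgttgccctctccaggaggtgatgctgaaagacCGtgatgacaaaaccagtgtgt

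The Vapa stretch, before an internal start of a gene for an endoplasmic reticulum membrane anchor, held 31 CpG and was 74.8% G+C, and 228 of its 250 bases lay in the called region. The Palld stretch, from the gene of the actin-bundling protein palladin, held 13 CpG at 62.4% G+C, and 236 of its bases lay in the region. The Dcaf11 stretch, from a substrate receptor of CUL4 ubiquitin ligases, held 10 CpG, and 249 of its bases lay in the region. Dnmt1 encodes the maintenance DNA methyltransferase, and its stretch held 7 CpG. Only 103 of its bases lay in the called region, so most of it is outside. Only 5 CpG stood in the stretch of Bmpr1b, a gene for a bone morphogenetic protein receptor, and 169 of its bases lay in the region. CpG density therefore differed several-fold among these members, from Vapa to Bmpr1b, although all 5 were called.

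Of the 592 regions of shUbe2t #1 alone, 6 were not on chromosomes 1 to 19, X or Y, 5 overlapped a no-antibody interval and 364 lay within 1000 bp of a gene end, which left the 217 members. Of the 687 regions of shUbe2t #2 alone, 7 were off these chromosomes, 8 overlapped a no-antibody interval and 433 lay near a gene end, which left 239. Among the regions removed for a no-antibody overlap, 4 of shUbe2t #1 and 6 of shUbe2t #2 would otherwise have been members. No member was lost to a filter on low values.

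Gene bodies held 126 members of shUbe2t #1, or 58.1% (exact Clopper-Pearson 95% interval 51.2 to 64.7), and 131 members of shUbe2t #2, or 54.8% (48.3 to 61.2). The other 91 and 108 lay between genes. Intervals on shares and fragment counts cover counting error only and leave out any variation between cultures. Regions called in shCtrl alone under the same rule were in gene bodies in 49.3% (43.1 to 55.4), or 132 of 268. The 3 intervals overlap as given, but not under every alternative. Without predicted genes the share was 48.6% (42.2 to 55.0) for shUbe2t #1 against 35.0% (29.6 to 40.6) for shCtrl alone. For shUbe2t #2 it was then 46.1% (40.1 to 52.3), which overlaps the interval of shCtrl alone. With equal numbers of intervals from the lists it was 64.1% (55.6 to 72.0) for shUbe2t #2 against 48.8% (42.9 to 54.7) for shCtrl alone. For shUbe2t #1 it was then 59.7% (51.7 to 67.4), which overlaps. Neither of these alternatives set both hairpins apart from shCtrl alone.

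Among all calls as deposited, the surplus of single-hairpin regions over shCtrl-alone regions was at gene ends and not away from them. The counts of stronger calls, given further below, differed away from gene ends. Near gene ends there were 364 regions of shUbe2t #1 alone and 433 of shUbe2t #2 alone, against 156 of shCtrl alone. Away from gene ends the order turned, with 217 and 239 against 268. In shares, 37.3% (33.4 to 41.4) of the free regions of shUbe2t #1 alone and 35.6% (31.9 to 39.3) of those of shUbe2t #2 alone lay away from gene ends, against 63.2% (58.4 to 67.8) for shCtrl alone. Regions of both hairpins were away from gene ends in 20.2% (15.1 to 26.1), or 45 of 223.

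Within the members, 1 place went against this order. At start windows inside gene bodies, which run from 250 bases before a RefSeq start to 50 after it, there were 20 members of shUbe2t #1 and 30 of shUbe2t #2, against 9 regions of shCtrl alone. Elsewhere in gene bodies the counts were 106 and 101 against 123, and between genes 91 and 108 against 136. Calls were also limited to a −log10 q of 5 or more. The counts away from gene ends became 60 for shUbe2t #1, 79 for shUbe2t #2 and 61 for shCtrl alone. The shortfall of the hairpins was then not kept, with shUbe2t #1 close to shCtrl alone and shUbe2t #2 above it. These counts include regions whose weaker call in another list was dropped by the limit. Of the regions as called, 39, 60 and 34 away from gene ends reached that q. With each list limited to its strongest 1263 intervals, which also drops weaker calls, the counts away from gene ends were 159 and 142 against 289.

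**Figure D1:**
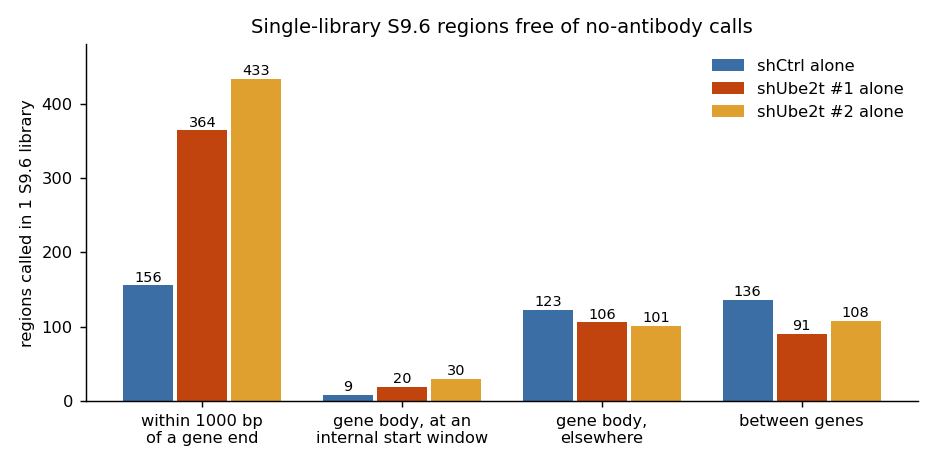
Bars give the number of merged S9.6 regions called in 1 library and free of no-antibody calls, by place, for shCtrl alone, shUbe2t #1 alone and shUbe2t #2 alone. The hairpin bars stand above shCtrl near gene ends (364 and 433 against 156) and at internal start windows (20 and 30 against 9), and below it in the other places.

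Internal start windows were a small part of the DNA in which members could lie. The 4435 windows away from gene ends, of 32851 in the RefSeq promoter table, covered 0.114% of gene-body sequence more than 1000 bp from a gene end. Of the gene-body members, 15.9% (9.97 to 23.4) of shUbe2t #1 and 22.9% (16.0 to 31.1) of shUbe2t #2 overlapped such a window. The window share counts bases, while these shares count regions of at least 200 bp that touch a window at any base. The base share is therefore not the share that regions placed without regard to windows would show. Over the gene-body regions of all other S9.6 classes the share was 11.6%, or 29 of 251. It was 6.82% (3.16 to 12.5) for shCtrl alone, which gave 132 of these 251 regions, and 34.6% (17.2 to 55.7), or 9 of 26, for regions of both hairpins. Regions held by all 3 S9.6 libraries showed 13.3% (5.05 to 26.8), or 6 of 45. Regions of shCtrl and shUbe2t #1 showed 9.52% (1.17 to 30.4), and those of shCtrl and shUbe2t #2 11.1% (2.35 to 29.2). The intervals of these classes overlap those of the members, so the overlap with starts was not particular to single-hairpin regions.

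**Figure D2:**
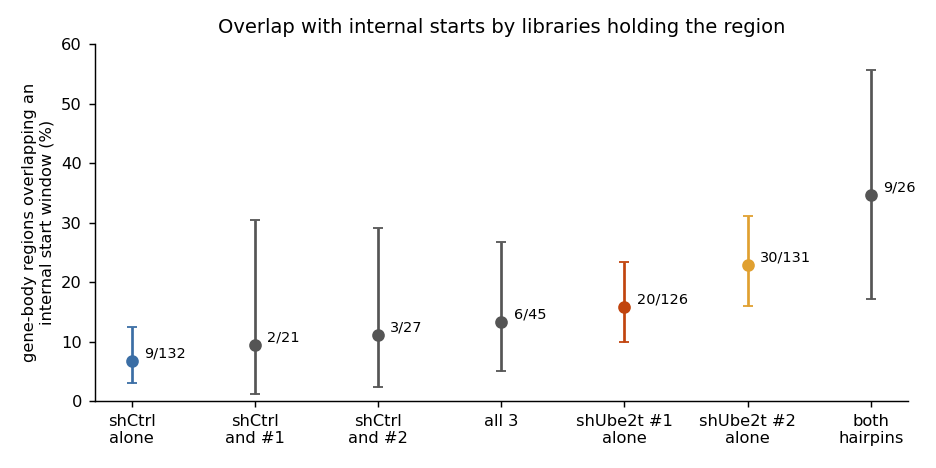
Points give the percentage of gene-body regions away from gene ends that overlapped an internal start window, by which libraries held the region, and lines give exact 95% binomial intervals. The single-hairpin classes (20 of 126 and 30 of 131) lie above shCtrl alone (9 of 132) and below regions of both hairpins (9 of 26), with intervals that overlap between neighbours.

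For shUbe2t #2 much of this lay just past the 1000 bp limit. Of its 30 members at an internal start, 18 were within 2000 bp of a gene end, against 1 of 20 for shUbe2t #1 and 3 of 9 for shCtrl alone. At a limit of 2000 bp the share for shUbe2t #2 was 12.8% (6.77 to 21.2), while it was 17.9% (11.2 to 26.6) for shUbe2t #1 and 5.41% (2.01 to 11.4) for shCtrl alone. The shUbe2t #1 share thus kept its place when the limit moved and the shUbe2t #2 share fell by over 1.5 times. Both shares were higher than that of shCtrl alone, but each interval then overlapped the shCtrl-alone interval.

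Summits sat at the start sites or a little before them. The median distance from start to summit was -51 bp in shUbe2t #1, where negative values are upstream, with 14 of 20 summits upstream and 15 within 150 bp. In shUbe2t #2 it was -37.5 bp, with 21 of 30 upstream and 26 within 150 bp. All 9 shCtrl-alone summits were also within 150 bp, at a median of -47 bp. Overlap with a window limits where a summit can sit, so these distances describe the regions picked and set no class apart.

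Most windows under members were rich in G+C and CpG. Over the 50 windows of both hairpins' members the median G+C was 65.5% and the median CpG ratio, observed over that computed from base content, was 0.783. Over all 4435 windows away from gene ends the medians were 51.3% and 0.300. A window with at least 50% G+C and a CpG ratio of at least 0.6 was called CpG-rich. Of the member windows 36 of 50 met this, or 72.0% (57.5 to 83.8), against 22.5% (21.3 to 23.8) of all such windows. Among the members whose sequences are given above, only the Vapa window met it. The CpG ratio was 0.5 for Dnmt1, 0.571 for Dcaf11, 0.571 for Palld and 0.291 for Bmpr1b.

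Most of the few windows under shCtrl-alone regions were CpG-rich too, 7 of 9, beside 14 of 20 for shUbe2t #1 and 22 of 30 for shUbe2t #2. CpG richness thus went with S9.6 calls at internal starts in each of these classes and did not set the hairpins apart from shCtrl. The GC-box letters GGGCGG, which hold a CpG themselves, were in 36 of the 50 member windows on either strand, against 28.7% of all windows. TATAAA was in 3 of 50 on either strand, against 13.0% of all windows. These are matches of letters and not sites of binding.

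**Figure D3:**
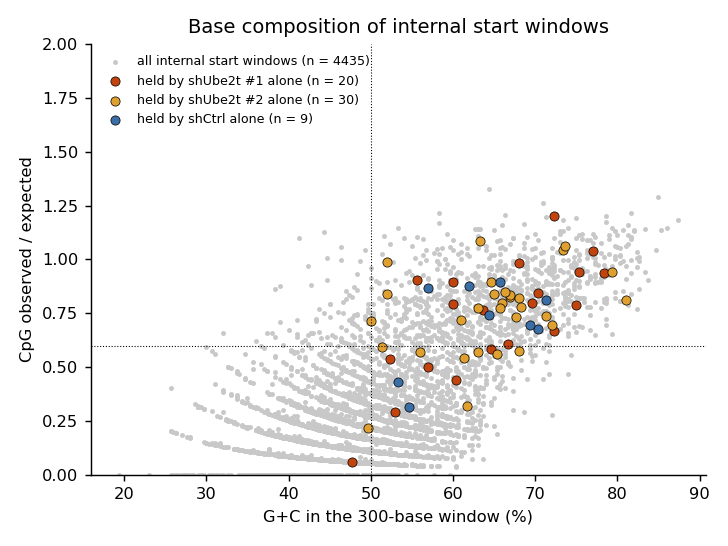
Each point is a start window of 300 bases inside a gene body and away from gene ends, with G+C in percent across and the CpG observed-to-expected ratio up. Dotted lines mark 50% and 0.6. The windows held by shUbe2t #1 alone (20), shUbe2t #2 alone (30) and shCtrl alone (9) lie mostly in the upper right, while most of the 4435 grey points lie below 0.6.

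Members at an internal start lay in genes of unlike roles. Those named in this paragraph beside Fth1 were picked after their values had been seen. In shUbe2t #1, Nedd9, a focal adhesion scaffold, had a fold of 5.74 from 13 fragments at its summit, and Gphn, the scaffold of inhibitory synapses, had 5.69 from 13. Hnrnpl, a splicing regulator, stood at 4.86, Mllt10, a partner of the DOT1L methyltransferase, at 4.73 and Hdac4, a histone deacetylase, at 3.62. Cdkn2a, a tumour suppressor locus known for a pair of alternative starts, had a fold of 3.70 from 9 fragments, at the low end of these calls. In shUbe2t #2, Map4, which binds microtubules, had 5.73 from 17 fragments and Gad2, a glutamate decarboxylase, had 5.77 from 17. Fth1, the ferritin heavy chain, stood at 5.81, Kmt5a, the histone H4 lysine methyltransferase, at 4.93, Kdm4c, a histone H3 lysine demethylase, at 4.67 and Ybx1, a binder of RNA, at 3.77. Map4, Gad2, Fth1 and Ybx1 all lay within 2000 bp of a gene end, whereas Kmt5a and Kdm4c lay 6583 and 9212 bp from one.

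Members also lay early in their host genes. The strand of the host, taken from the same RefSeq table, was known for 100 gene-body members of shUbe2t #1, 104 of shUbe2t #2 and 99 regions of shCtrl alone. Within 5000 bp of the 5′ end were 29.0% (20.4 to 38.9) and 31.7% (22.9 to 41.6) of the members, against 9.09% (4.24 to 16.6) for shCtrl alone. Within 5000 bp of the 3′ end the shares were 8% (3.52 to 15.2) and 12.5% (6.83 to 20.4) against 10.1% (4.95 to 17.8). These are shares of regions in single libraries, and regions are not replicates of a condition. The share on the 5′ side was higher in each hairpin library than in shCtrl, and the shares on the 3′ side were closer together.

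The shares were also taken without the regions at a start window. Then 24 of 80 in shUbe2t #1 (95% interval 20.3% to 41.3%), and 15 of 74 in shUbe2t #2, or 20.3% (11.8 to 31.2), were within 5000 bp of the 5′ end, against 7 of 90, or 7.78% (3.18 to 15.4), in shCtrl alone. Here the shUbe2t #2 interval overlaps that of shCtrl alone. Regions beside a start window and not in it remained in these counts. With a limit of 2000 bp from gene ends the shares over all gene-body regions were 18.6% (11.0 to 28.4), 12.3% (5.80 to 22.1) and 2.47% (0.300 to 8.64). The levels moved with the limit by over 1.5 times, and the intervals of shUbe2t #2 and shCtrl alone then overlapped.

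Over the whole gene length the difference was smaller. The first 25% of the host held 44.0% (34.1 to 54.3) of the members of shUbe2t #1, 37.5% (28.2 to 47.5) of those of shUbe2t #2 and 24.2% (16.2 to 33.9) of shCtrl-alone regions. The median position was 27.8% and 34.6% along the gene against 49.6%, and the median distance from the 5′ end was 12.1 and 12.5 kb against 28.0 kb. Host length ran in no 1 direction, with medians of 90.7 kb, 61.5 kb and 85.4 kb.

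The median distance to the nearest end of any gene was shorter for hairpin members in gene bodies and differed little between genes. The median was 6831 bp in shUbe2t #1 and 5883 bp in shUbe2t #2 for gene-body members, against 10059 bp for shCtrl alone. The ranges between quartiles overlapped widely, at 2894.5 to 21190 bp, 1900 to 19635.5 bp and 3374 to 23224 bp. Between genes it was 15653 and 12740 bp against 14182 bp, and the farthest member was 370867 bp from a gene end. The members nearest the limit were regions near Gm6249, at 1004 bp and fold 3.57, in Gabbr2, at 1019 bp and 4.62, and in Trim41, at 1035 bp and 4.31. Just outside it were regions at Nadk, at 989 bp and fold 5.00, Mettl17, at 985 bp and 4.74, and Zfp239, at 981 bp and 3.73. The folds on either side of the limit overlap.

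**Figure D4:**
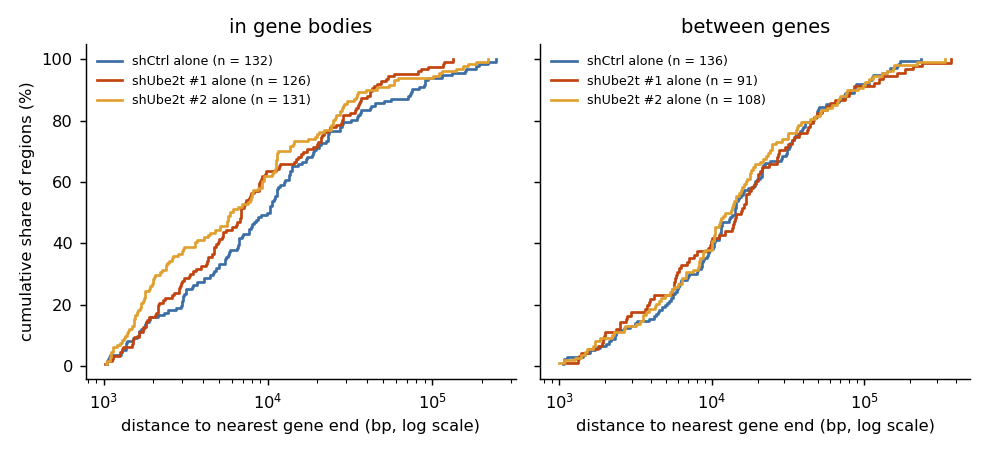
Lines give the cumulative percentage of regions against distance to the nearest gene end, on a log scale in bp, for gene bodies and between genes. In gene bodies the hairpin lines lie left of shCtrl alone over most of their course (medians 6831 and 5883 against 10059 bp), and between genes the 3 lines run together.

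The strongest gene-body members were spread over genes of unlike roles. Because the fold chose the calls, these values are a description. In shUbe2t #1 the highest fold, 7.50, was in Hydin, a protein of the ciliary central pair, with 20 fragments at the summit (Poisson 95% interval 12.2 to 30.9). From the shUbe2t #1 background at that summit, scaled for depth, a call was estimated to need 10 in shCtrl and 9 in shUbe2t #2. That region, at chr8:110500308-110500545, also overlaps the predicted gene Gm21283. Vapa followed at 7.10 with 22 fragments (13.8 to 33.3), where the estimate was 11 in either other library. For both genes the lower bound of the count exceeded the number estimated for shCtrl. The count was part of what chose these regions and the background of shCtrl there is unknown, so this is a description.

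Other high members of shUbe2t #1 were in Gfod2 at 6.47, Dnmt1 at 6.33, Tmcc1 at 6.25, Magi1, a scaffold of cell junctions, at 6.15 and Ankar at 6.09. Sgms1, a sphingomyelin synthase, had 6.03, Cpeb2, which binds cytoplasmic polyadenylation elements, 6.02 and Cenpj, a centriole assembly protein, 5.86. Dnmt1 had 18 fragments and Magi1 23, while Ankar and Sgms1 had 13 each against an estimated 8 needed in shCtrl. Vapa and Dnmt1 were the members of these 10 at an internal start.

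In shUbe2t #2 the highest gene-body fold was in Gulp1, an engulfment adaptor, at 7.17 with 15 fragments (8.40 to 24.7) against an estimated 8 needed in shCtrl. Cfap46, of cilia and flagella, stood at 6.82, Sptbn4, a beta spectrin of neurons, at 6.60 and Dcaf11 at 6.39 with 22 fragments. Alox15, a lipoxygenase, stood at 6.35, Akap6, a protein kinase A anchor, at 6.30 and Trappc12, of a vesicle tethering complex, at 6.29. Palld, at 6.25 with 19 fragments, Atp1b3, a subunit of the sodium pump, at 6.04 and Cdkal1, a tRNA-modifying enzyme, at 5.93 completed the 10. Dcaf11 and Palld were those at an internal start.

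Members between genes reached the same folds. In shUbe2t #1, regions at chr2:124003613-124003825, 86.1 kb from Sema6d, and at chr3:21698370-21698598, 4.22 kb from Gm31693, both had a fold of 7.50 with 17 fragments. A region at chr3:153838100-153838331, 5.92 kb from Asb17, had 7.41, one 14.4 kb from Kif14 had 6.85 with 22 fragments and one 15.7 kb from Rab11fip2 had 6.36. In shUbe2t #2, regions 61.6 kb from Gm36082 on chromosome 14 and 26.6 kb from LOC665918 on chromosome Y both had 7.62 with 16 fragments. The next were 31.8 kb from Gm5088 at 7.17, 8.82 kb from Cd36 at 6.80 and 3.72 kb from Gm46480 at 6.67. The nearest gene is named for place alone.

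Over all members the summits were low in fragments. The median was 13 fragments in gene bodies of shUbe2t #1, and over all members the lowest count was 8. Median folds were 4.56 in gene bodies and 4.52 between genes for shUbe2t #1, and 4.72 and 4.43 for shUbe2t #2, against 4.32 and 4.26 for shCtrl alone. Regions of 200 bp, the shortest, numbered 82 in shUbe2t #1 and 90 in shUbe2t #2. A −log10 q of 5 or more, as deposited, was reached by 39 members of shUbe2t #1 and 60 of shUbe2t #2, or 25.1% of the latter, against 12.7% of shCtrl-alone regions and 27 of 45 regions of both hairpins away from gene ends.

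Few members stood far above what shCtrl would have needed for a call. The summit, scaled for depth, was a median of 1.33 times the smallest pileup callable in shCtrl for shUbe2t #1 and 1.34 times for shUbe2t #2. It passed 1.5 times in 50 members, or 23.0%, and 69 members, or 28.9%. The Poisson lower bound of the scaled summit lay above the shCtrl threshold in 16 of 217 and 17 of 239. That threshold was estimated from the background of the hairpin library, and the summits chose the members, so these counts are a description. Against the other hairpin the medians were 1.27 for shUbe2t #1 and 1.25 for shUbe2t #2. The fragments of the uncalled libraries at these places are not in the lists, so a missing call gives no level there.

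**Figure D5:**
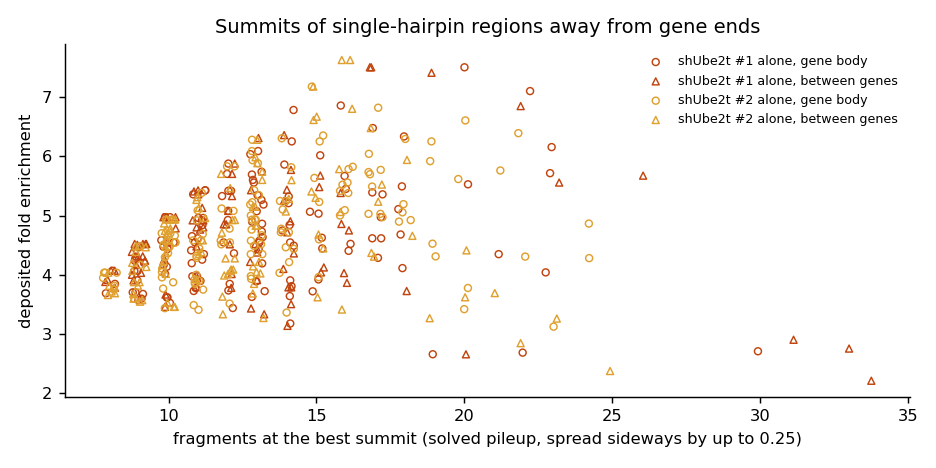
Each marker is 1 member, with fragments at its best summit across and deposited fold enrichment up, circles for gene bodies and triangles between genes. Most lie under 20 fragments and between folds of 3 and 6, and a few with 30 or more fragments have folds under 3.

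The members with the most fragments had low folds, since their surroundings were also high. A region near Tubb3 had 34 fragments at a fold of 2.21, a region near Gm40467 had 33 and a region in Duxf3, a gene of a repeated family, had 30 at 2.71. These 3 were named after their values had been seen.

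A small share of members had a call of another library close by. Within 1000 bp, 13 members of shUbe2t #1 had a shCtrl interval, 14 an interval of shUbe2t #2 and 4 a no-antibody interval, which made 20 members, or 9.22%, with any. For shUbe2t #2 the counts were 10 for shCtrl, 8 for shUbe2t #1 and 0 without antibody, and 16, or 6.69%, with any. Merging intervals up to 1000 bp apart left 195 and 221 members.

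A few genes held 2 members. Dcaf11, Rsph3b, Idh1 and Arhgap26 held 1 from each hairpin, at gaps of 128, 156, 477 and 6907 bp. In Dcaf11 the shUbe2t #1 region had a fold of 5.71 with 23 fragments and the shUbe2t #2 region 6.39 with 22. The shUbe2t #2 region overlaps the internal start window and the shUbe2t #1 region does not. Idh1, the cytosolic isocitrate dehydrogenase, had 3.97 in shUbe2t #1 and 4.51 in shUbe2t #2. Rsph3b had 5.21 and 4.35, and Arhgap26 had 5.11 and 5.09.

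Vapa, Dlg4, Piezo2 and Zfp978 held 2 members of shUbe2t #1, and Rabgap1l held 2 of shUbe2t #2. Dlg4, the postsynaptic scaffold PSD-95, had folds of 4.11 and 3.18, Piezo2, a mechanosensitive channel, 3.91 and 3.77, and Rabgap1l 5.08 and 4.44. The second Vapa region had 4.43. Zfp978, of a zinc-finger family with close copies in which reads may be split, had 4.97 and 2.66.

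By gene lists, members were rare. Over all 32946 genes longer than 2002 bp, 261 held a member in the body, or 0.792%, and over the 236 genes of at least 500 kb it was 16, or 6.78%. Of 40 very long and fragile-site genes, 2 held a member, Csmd1 at 4.07 in shUbe2t #1 and Auts2 at 3.95 in shUbe2t #2, against 4 with a shCtrl-alone region. This is near the background of genes of that length.

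Of 80 neuronal adhesion and synapse genes 4 held a member, against 3 with a shCtrl-alone region. They were Cdh2, N-cadherin, at 4.92, Cntnap4 at 3.97 and Dlg4 in shUbe2t #1, and Lrrc4c, a netrin-G ligand, at 4.97 in shUbe2t #2. Many of these genes are long too, with a median of 452 kb, and over all genes of at least 500 kb the share with a member was 6.78%. Of 30 highly transcribed housekeeping genes, 2 held a member, Fth1 in shUbe2t #2 and Ptma, prothymosin alpha, at 3.72 in shUbe2t #1. None of the 30 held a shCtrl-alone region, and their median length was 5.02 kb. Over all genes longer than 2002 bp the share with a member was 0.792%, and a count of 2 is too small to read against it.

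Genes of the Fanconi anaemia pathway, in which UBE2T acts, held no member. The list had 36 such genes, with those of crosslink repair included, of which 35 were long enough to hold a member, and none of them held a shCtrl-alone region either. Of 34 ubiquitin-conjugating enzymes, Ube2g1 held 1 at 5.61 from 20 fragments in shUbe2t #2, 1091 bp from the end of the gene. Of 28 pluripotency genes, 26 were long enough and none held 1 in its body, while Lefty2, a secreted inhibitor of Nodal signalling looked up after the values were seen, had a shUbe2t #2 member within 5000 bp beside it at a fold of 3.68. These counts are too small to set beside the background of 0.792%.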

How the data were processed

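S9.6 CUT&Tag peaks from 1 library per condition were analysed, with no replicates. The submitters' processing notes name MACS2 2.1.2, Trimmomatic, mm10 and Bowtie, the last under version 0.7.12. Step order, duplicate handling, the threshold on q and whether a control entered the calling were not given in the sources used here. Duplicates, if kept, would raise pileups. The deposited lists give, per summit, the authors' fold enrichment as a ratio over local background, and the authors' p and q on a −log10 scale. The score column of the deposited lists, a whole number per peak from the authors, was not analysed.

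Intervals were merged at 0 bp and placed with 49943 genes of GRCm38.p6. A host is the longest gene holding a region, named genes before predicted ones. Fold and p were solved together for fragments and background at each summit, with 1 added to both sides of the ratio and a Poisson tail for p, and this was checked on simulated data. Depth was the lowest background of a list. A callable pileup was the smallest that reaches the lowest deposited −log10 p of the list without the call. It was estimated at the background of the library with the call, scaled for depth and not below the lowest background of the other list. The other library's own background at that place is not known. Base composition of regions outside RefSeq start windows was not analysed here. Python 3.11.15, pandas 2.3.3, numpy 2.4.6, scipy 1.17.1 and matplotlib 3.10.9 were used.

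The members and gene lists were chosen with earlier results of these data known. Of 274 list names 272 matched, and the result of 1 list is not reported here. Named are the 10 gene-body members of highest fold per hairpin in genes without a Gm or Rik name, the 5 of highest fold between genes, genes with 2 or more members or with members of both hairpins, members of the gene lists, and those nearest the 1000 bp limit. Alternatives changed the merging gap, the q and number of intervals, the limit, the gene table, the use of the no-antibody list, the summit, the threshold and the reach of a gene.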

Additional observations from a re-analysis of the deposited data

How the results depend on the processing

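Of the region counts, shares and medians recomputed under alternatives, 111 stayed within their error or 1.5 times and 27 moved by more. With a −log10 q of at least 5 in every S9.6 list, regions counted as members numbered 60 for shUbe2t #1 and 79 for shUbe2t #2. Those of shCtrl alone numbered 61. Weaker calls in the other S9.6 lists were dropped first, so some of these regions are not members under the rule. Gene-body shares were 70.0% and 62.0%, median folds 5.79 and 5.77, and median lengths 235.5 and 223 bp. Median summits were 14.0 and 13.0 times the lowest background of their list, and median ratios to the shCtrl threshold 1.74 and 1.71. With the same number of intervals per list, shUbe2t #2 had 142 members, 64.1% in gene bodies. At 5000 bp from gene ends it had 156, with 46.8% in gene bodies and 13.7% of these at a start window, against 12.8% at 2000 bp. Without predicted genes the gene-body shares were 48.6%, 46.1% and, in shCtrl alone, 35.0%. Counting start windows within 1000 bp gave 23.8% for shUbe2t #1. Shares within 5000 bp of the 5′ end, at a limit of 2000 bp, were 18.6%, 12.3% and 2.47%, where regions nearest that end are left out by construction. With the 5th percentile of −log10 p as threshold the shUbe2t #2 ratio was 1.26. Start windows, 5′ position and shCtrl-alone counts were chosen after seeing the data. No paired analysis was possible because each condition has 1 library, and for the same reason no replicate could be left out. Depth limits these calls: a summit of 8 fragments could be called, so a missing call does not show a missing signal.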

Other observations

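Members were spread over every chromosome, with uneven counts between the hairpins that have no replicate. These chromosomes were picked after their counts had been seen. Chromosome 18 held 15 members of shUbe2t #1, 6 of shUbe2t #2 and 6 regions of shCtrl alone. Chromosome 12 held 7, 16 and 4, and chromosome 5 held 7, 16 and 26. Chromosome X held 1, 3 and 3. Hosts of gene-body members were protein-coding genes in 112 cases for each hairpin and in 109 for shCtrl alone, and long non-coding RNA genes in 14, 15 and 15. Hosts of at least 500 kb held 7, 11 and 16 regions.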
